A study of Mus musculus with 10 samples.

Results

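The genes described here write, copy and erase methylation on cytosine in DNA, or work beside the enzymes that do so. They are Dnmt1, Dnmt3a, Dnmt3b, Uhrf1, Uhrf2, Hells, Tet2, Tet3, Tdg and Mbd3, a list of 10 taken by gene symbol from the platform's gene table. Of these, 9 had probe sets of their own, 21 probe sets in all among the 45037 tested, and 9 genes of the 18193 with such a probe set. Tdg, the glycosylase that cuts out the oxidised cytosines made by TET enzymes, was covered by 3 probe sets that the table also gives to its pseudogenes, so it has no value here.

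Expression was measured on Affymetrix arrays of RNA from mouse secondary inducible embryonic fibroblasts, cells that carry doxycycline-inducible reprogramming factors, from a 129/SvJ and C57/B6 hybrid strain. The 10 arrays fall into 5 groups of 2. The control was uninduced and held in 0.5% serum for 96 h, and so received no doxycycline. The other 4 groups were induced for 96 h with doxycycline, labelled as 2 ug/ul, in 15% serum, and were divided by their average number of divisions: cohort 0, cohort 1, cohort 2, and cohort 3+ for an average of 3 or more. All 5 groups share the transgenes and the strain. The promoter that drives the factors and the way the cohorts were parted are not given in the sources used here. Doxycycline and serum both differ between every cohort and the control, for which no number of divisions is given, so their parts in any difference cannot be told apart.

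DNA methylation is copied after replication: UHRF1 binds the half-methylated sites behind the fork and brings in DNMT1, the maintenance methyltransferase, while HELLS, a chromatin remodeller, opens nucleosomes for methylation. DNMT3A and DNMT3B place new methylation. TET enzymes oxidise methylcytosine, and TDG followed by base excision repair restores an unmodified base. In fibroblasts driven toward pluripotency, silenced pluripotency genes carry promoter methylation that is known to be lost late, and the maintenance machinery is known as a product of cycling cells.

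The arrays form an earlier registered set of 4 (control and cohort 3+) and a later set of 6 (cohorts 0, 1 and 2). The comparisons of cohort 3+ with the control and of cohort 2 with cohort 0 lie inside a set; in every other comparison set and group cannot be told apart. The labels call the samples of the control and cohort 3+ biological replicates and the others replicates, and nothing states separate cultures, so p-values measure the spread between these samples, which may be technical. All values below are log2 intensity, and a level is not set against the level of another gene. Of 12 fibroblast markers, 8 fell in cohort 3+ and none rose, and the mean over the list was 12.75 to 13.05 in the control and 11.30 to 11.71 in cohort 3+. Of 10 epithelial markers, 4 rose (Cdh1, Krt8, Krt19 and Dsp), and the mean over the list was 4.24 to 4.29 in the control, 4.59 to 4.71 in cohort 0, 5.03 to 5.13 in cohort 1, 5.53 to 5.94 in cohort 2 and 6.55 to 6.64 in cohort 3+. For 8 macrophage markers the list means in the control and cohort 3+ were 4.72 to 4.81 and 5.03 to 5.04 (Cd68 rose, Lyz2 fell). For 7 endothelial markers they were 4.13 to 4.18 and 4.54 to 4.55 (Tek rose, Kdr fell). For 8 markers of late pluripotency they were 4.33 to 4.51 and 4.45 to 4.50, and none was called (limma, adjusted p). These 8 read from 3.13 (Nanog) to 5.78 (Esrrb), and with 2 arrays per group the lack of a call does not show that a marker was unchanged. The Actb probe sets at the 3' end read 0.26 above those at the 5' end in both control arrays, 0.29 to 0.50 above in cohorts 0 to 2, and 0.49 and 0.50 above in cohort 3+, a mark of RNA quality that moved with the groups. The part of these markers in the results below was not tested, and in bulk RNA a change in the number of cells of a kind and in RNA per cell cannot be told apart.

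Promoter windows are shown for the maintenance genes because those genes moved together, with Uhrf2 beside Uhrf1 as its relative. They come from RefSeq (GRCm38.p6) and hold 250 bases before and 50 from an annotated start, 5′ to 3′ on the gene's strand. All 10 genes were matched, with 3 windows each for Dnmt1 and Dnmt3a and 2 for Uhrf1. Capitals mark matches to an E2F-like motif, TTTNNCGC, on either strand, which was found in 5.17% of 32851 windows. Hells has a match 62 bases before its start (chr19:38930740-38931039, plus strand), Uhrf1 has one 56 bases before its first start (chr17:56303087-56303386, plus strand) and one 185 bases before its second (chr17:56304063-56304362, plus strand), and Uhrf2 has none (chr19:30030263-30030562, plus strand). For Dnmt1, a stretch of 30 bases is shown from the window of the last annotated start, which lies 356 bases downstream of the one before it (chr9:20952825-20952854, minus strand). Its capitals are a pair of overlapping matches on the opposite strand.
Hells: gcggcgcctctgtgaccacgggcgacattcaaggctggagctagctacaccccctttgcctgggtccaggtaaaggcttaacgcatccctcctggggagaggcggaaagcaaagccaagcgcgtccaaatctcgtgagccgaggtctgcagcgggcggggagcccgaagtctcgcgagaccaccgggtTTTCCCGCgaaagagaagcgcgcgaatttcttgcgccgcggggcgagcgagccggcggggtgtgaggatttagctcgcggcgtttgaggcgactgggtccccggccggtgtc
Uhrf1, first start: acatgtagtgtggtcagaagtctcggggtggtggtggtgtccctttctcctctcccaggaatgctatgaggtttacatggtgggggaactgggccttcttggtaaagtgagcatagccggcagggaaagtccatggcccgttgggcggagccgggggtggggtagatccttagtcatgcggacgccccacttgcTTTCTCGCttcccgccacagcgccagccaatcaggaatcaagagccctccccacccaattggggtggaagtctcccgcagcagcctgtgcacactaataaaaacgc
Uhrf1, second start: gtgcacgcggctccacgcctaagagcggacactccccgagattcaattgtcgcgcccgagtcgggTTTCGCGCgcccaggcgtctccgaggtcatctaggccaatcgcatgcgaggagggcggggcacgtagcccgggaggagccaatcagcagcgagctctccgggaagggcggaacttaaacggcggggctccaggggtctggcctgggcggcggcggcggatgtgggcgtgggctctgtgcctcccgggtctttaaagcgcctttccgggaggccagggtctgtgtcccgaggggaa
Dnmt1, last start: tggtttccgcgcGCGCGAAAAAgccggggt
Uhrf2: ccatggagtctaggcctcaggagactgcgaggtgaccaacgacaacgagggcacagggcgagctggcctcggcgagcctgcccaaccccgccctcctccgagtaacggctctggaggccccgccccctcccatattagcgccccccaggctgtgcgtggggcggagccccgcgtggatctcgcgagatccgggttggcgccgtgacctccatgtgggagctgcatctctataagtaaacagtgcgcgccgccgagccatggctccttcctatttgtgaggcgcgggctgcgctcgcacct
The Dnmt1 window also holds TTTGGCGC from base 34 after the start. The motif was thus present in 3 of the 10 listed genes and in 5.93% of the 27025 genes with a window. No window of Dnmt3a, Dnmt3b, Uhrf2, Tet2, Tet3, Tdg or Mbd3 has these letters, nor have the first 2 of Dnmt1. The other motifs searched on both strands were CCAAT (37.4% of all windows), GGGCGG as an Sp1-like motif (35.7%), TTTGAA as a CHR element (17.9%) and the E-box CACGTG (7.15%). CCAAT stood in both Uhrf1 windows (3 and 2 matches) and in the first and last of Dnmt1 (5 and 3), and also in Mbd3 (3), Tet3 (1) and Tdg (1). TTTGAA stood in the first of Dnmt1 and in Dnmt3b. CACGTG stood in the last window of Dnmt3a and in Tdg. By CpG, Tet2 had the densest window (57 in 300 bases, percentile 99.9), and the first pair of Dnmt3a windows held 46 and 47. A match is a description of the letters, and no binding was measured.

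The genes of maintenance methylation were highest in cohort 3+ and lowest in the control. Uhrf1, Hells and Dnmt1 rose 6.63-fold, 5.05-fold and 2.07-fold between these groups at their brightest probe sets, and the size of the Uhrf1 rise moved with the control array left out. Cohort 0, which had not divided on average, already read 2.72-fold and 2.24-fold above the control for Uhrf1 and Hells, but those differences did not pass the test in the fit without a replicate block.

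Uhrf1 encodes the reader that recruits DNMT1 to newly copied DNA. At 1415810_at the control arrays read 6.21 and 4.91, cohort 0 read 7.24 and 6.77, cohort 1 read 7.09 and 6.82, cohort 2 read 7.50 and 7.16, and cohort 3+ read 8.10 and 8.48. The control arrays lay below all others and the cohort 3+ arrays above all others, while cohort 0 overlapped cohorts 1 and 2. Cohort 3+ exceeded the control by 2.73 ± 0.38 (log2, SE; adjusted p = 0.0019, limma). This value was 3.38 without replicate 1 of the control and 2.08 without its replicate 2, and passed in both. At 1415811_at the control read 4.40 and 4.33 and cohort 3+ read 6.41 and 6.58, a rise of 2.13 ± 0.24 (adjusted p = 0.00076). Cohort 2 also rose above the control, by 1.77 ± 0.38 and 1.52 ± 0.24 at these probe sets (adjusted p = 0.043 and 0.016). Without 1 array the cohort 2 calls were lost in 3 of 4 fits at the first probe set (kept without replicate 1 of the control) and in all 4 at the second, with adjusted p up to 0.231 (without replicate 1 of cohort 2) and 0.119. The cohort 2 change at the first probe set was 2.42 without replicate 1 of the control and 1.12 without its replicate 2. Cohort 0 read 1.45 ± 0.38 above the control and cohort 1 read 1.40 ± 0.38 above it (adjusted p = 0.238 and 0.174), and a fit that blocked on the replicate number gave adjusted p = 0.0536 and 0.0396. The second probe set passed with the block in both (adjusted p = 0.0248 and 0.0273). From cohort 2 to cohort 3+ the difference was 0.96 ± 0.38 (adjusted p = 0.223).

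Hells encodes the helicase that works with CDCA7 in remodelling nucleosomes. Its brightest probe set, 1417541_at, read 5.95 and 5.68 in the control, 6.95 and 7.002 in cohort 0, 7.10 and 6.64 in cohort 1, 7.18 and 7.07 in cohort 2, and 7.98 and 8.32 in cohort 3+. Cohort 1 overlapped cohorts 0 and 2, the control arrays lay below all others and the cohort 3+ arrays above all others. The rise from the control was 2.34 ± 0.19 in cohort 3+ (adjusted p = 0.00028) and 1.31 ± 0.19, or 2.48-fold, in cohort 2 (adjusted p = 0.0124). The cohort 2 call was lost without replicate 1 of cohort 2 (adjusted p = 0.0975) and without replicate 2 of the control (adjusted p = 0.0636). Cohorts 0 and 1 stood 2.24-fold and 2.08-fold above the control, with adjusted p = 0.0659 and 0.0575, and 0.0189 and 0.0161 with the replicate block. Hells was also one of the members that rose between cohorts 2 and 3+, by 1.02 ± 0.19 (2.03-fold, adjusted p = 0.0368), a comparison that crosses the sets and lost its call without any 1 of the 4 arrays (adjusted p 0.0610 to 0.287). The second probe set, 1430139_at, moved less: 1.20 ± 0.15 in cohort 3+ against the control (adjusted p = 0.0011) and 0.79 ± 0.15 against cohort 2 (adjusted p = 0.0378, and 0.0610 to 0.291 without 1 array). The last probe set, 1453361_at, was dim, at percentile 17.3 of all probe sets, and read 0.54 ± 0.20 above the control in cohort 3+ (adjusted p = 0.0938).

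Dnmt1, the maintenance methyltransferase, followed the same order of groups over a narrower range. At 1422946_a_at it read 7.96 and 7.31 in the control, 8.22 and 7.80 in cohort 0, 8.11 and 7.62 in cohort 1, 8.39 and 7.97 in cohort 2, and 8.57 and 8.80 in cohort 3+. The first 4 groups overlapped along this order, and cohort 3+ lay above all of them. The rise from the control was 1.05 ± 0.27 (adjusted p = 0.0275), and it was lost without replicate 1 of cohort 3+ (adjusted p = 0.0729), without its replicate 2 (0.163) and without replicate 2 of the control (0.140). A pair of other probe sets, 1435122_x_at and 1447877_x_at, whose suffix marks probes that may bind other transcripts, rose by 1.38 ± 0.23 and 1.41 ± 0.20 (adjusted p = 0.0039 and 0.0018), and kept the call without each array in turn. These probe sets went with the first across the 10 arrays (r 0.952 and 0.909). With the replicate block 1447877_x_at passed in cohort 0 (0.81 ± 0.20, adjusted p = 0.0398 against 0.191 without the block) and in cohort 1 (0.69 ± 0.20, adjusted p = 0.0458 against 0.19). In cohort 2 both passed with the block (0.80, adjusted p = 0.0353 and 0.0124 against 0.102 and 0.0628). Against cohort 2, cohort 3+ read 0.51 ± 0.27 higher at the first probe set (adjusted p = 0.372) and 0.60 ± 0.20 at 1447877_x_at (adjusted p = 0.141, and 0.037 with the block).

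**Figure D1:**
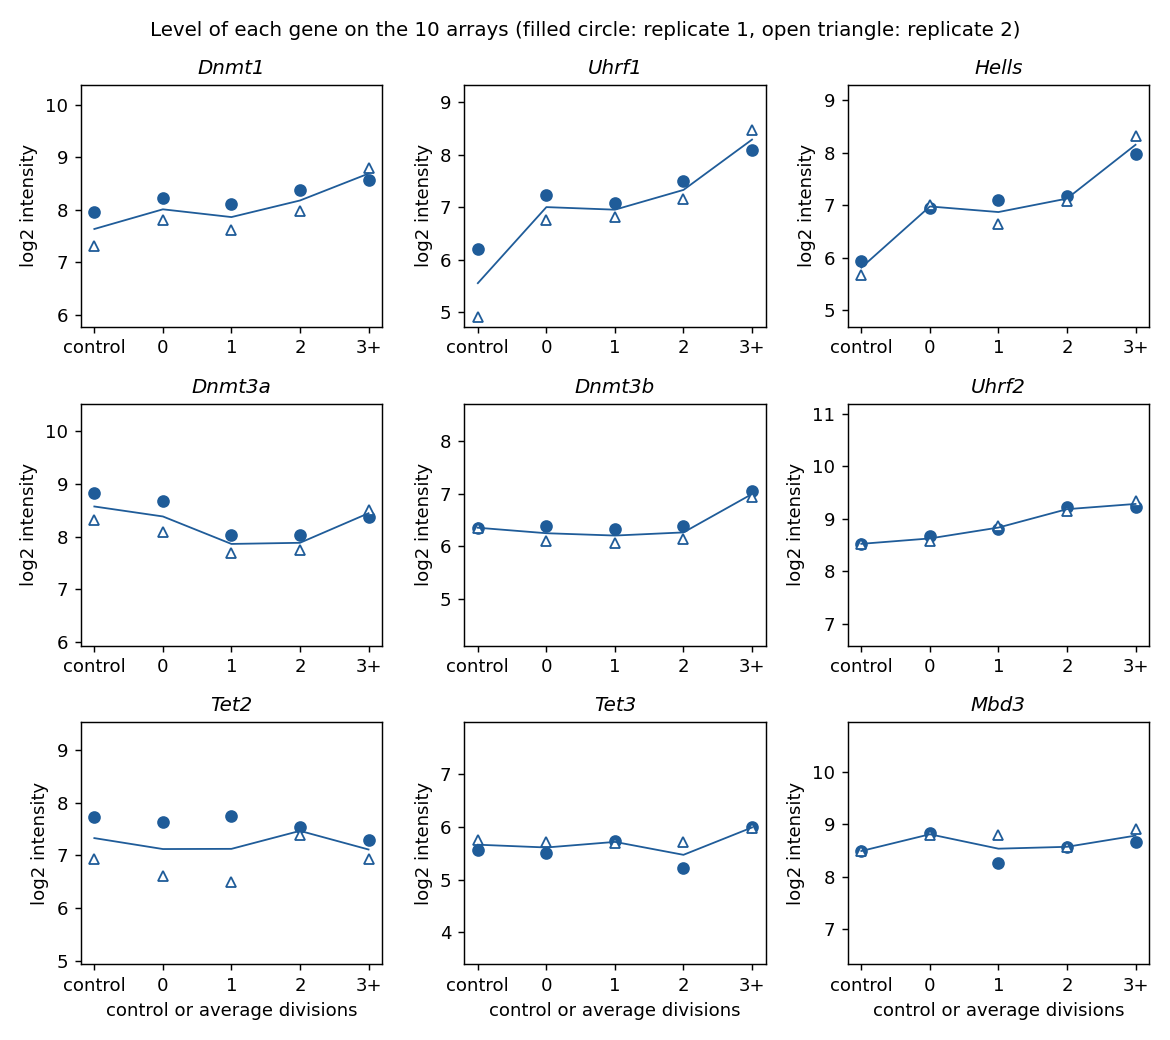
Log2 intensity (vertical axis) of the 9 measured genes at their brightest probe set in the control and the 4 division cohorts (horizontal axis); filled circles are replicate 1, open triangles replicate 2, and the line joins group means. Uhrf1, Hells and Dnmt1 are lowest in the control and highest in cohort 3+, Dnmt3a is lowest in cohorts 1 and 2, and the Tet2 replicates lie apart in most groups.

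Uhrf2, the relative of Uhrf1 that binds methylated and hydroxymethylated DNA, had its lowest mean in the control and a higher one in each cohort with more divisions. At 1454920_at it read 8.53 and 8.52 in the control, 8.67 and 8.58 in cohort 0, 8.81 and 8.86 in cohort 1, 9.22 and 9.15 in cohort 2, and 9.22 and 9.34 in cohort 3+. No neighbouring groups overlapped in the order of the group means, although the highest array of cohort 2 and the lowest of cohort 3+ both round to 9.22. The difference from the control was 0.10 ± 0.11 in cohort 0 and 0.31 ± 0.11 in cohort 1, which did not pass (adjusted p = 0.856 and 0.282). It was 0.66 ± 0.11 in cohort 2 (1.58-fold, adjusted p = 0.0181) and 0.76 ± 0.11 in cohort 3+ (1.69-fold, adjusted p = 0.0020). The cohort 3+ call held without each array, and the cohort 2 call was lost without any 1 of the 4 (adjusted p 0.0554 to 0.121). Inside the later set, cohort 2 exceeded cohort 0 by 0.56 ± 0.11 (1.47-fold), which did not pass after adjustment (adjusted p = 0.209, and 0.0723 with the replicate block). Cohorts 2 and 3+ differed by 0.10 ± 0.11 (adjusted p = 0.695). The other probe set, 1447217_at, was dim (percentile 22 of all probe sets), read 3.48 to 3.98 on all arrays and did not go with the first (r 0.075 over 10 arrays).

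At their brightest probe sets both de novo methyltransferases read higher in cohort 3+ than in cohort 2, a comparison that crosses the sets. The difference was 0.56 ± 0.25 for Dnmt3a, which did not pass, and 0.73 ± 0.15 for Dnmt3b, which did. At its brightest probe set Dnmt3a was lowest in cohorts 1 and 2 and near the control in cohort 3+. That probe set had no call against the control in the fit without the block. Other Dnmt3a probe sets passed against the control in that fit, 1423066_at in cohort 2 (lower) and 1423064_at in cohort 3+ (higher). Dnmt3b rose in cohort 3+ against the control as well. The genes were not tested against each other.

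Dnmt3a, which methylates DNA that carries none, has 5 probe sets. At the brightest, 1423063_at, the control read 8.84 and 8.31, cohort 0 read 8.68 and 8.09, cohort 1 read 8.04 and 7.69, cohort 2 read 8.03 and 7.74, and cohort 3+ read 8.38 and 8.52. Cohorts 1 and 2 overlapped and lay below the other groups, whose ranges overlapped in the order cohort 0, cohort 3+, control. Against the control, the differences were -0.19 ± 0.25, -0.71 ± 0.25, -0.69 ± 0.25 and -0.13 ± 0.25 in cohorts 0, 1, 2 and 3+, none of which passed (adjusted p 0.185 to 0.898). With the replicate block the difference in cohort 2 passed (1.61-fold lower, adjusted p = 0.0349). The probe set 1423066_at read 7.16 and 6.66 in the control, 6.69 and 6.62 in cohort 0, 6.42 and 6.21 in cohort 1, 6.23 and 5.98 in cohort 2, and 6.97 and 7.08 in cohort 3+. It fell by 0.81 on the log2 scale (SE 0.18) in cohort 2 against the control (adjusted p = 0.0471) and rose by 0.92 ± 0.18 from cohort 2 to cohort 3+ (1.90-fold, adjusted p = 0.0405). Leaving out 1 array took the first of these calls in 3 of 4 fits (kept without replicate 2 of the control, otherwise adjusted p up to 0.190) and the second in all 4 (0.0963 to 0.301). In cohort 2 the probe sets 1460324_at and 1423065_at read 0.81 and 0.73 below the control (adjusted p = 0.182 and 0.249, and 0.0273 and 0.0628 with the block). Inside the later set, 4 of the 5 probe sets were lower in both cohort 2 arrays than in both cohort 0 arrays, by 0.41 to 0.55, and none passed (adjusted p 0.535 to 0.881). These probe sets read 1 gene, and 36.3% of all probe sets had arrays apart, in either direction, in this comparison.

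The fifth Dnmt3a probe set, 1423064_at, dipped less in cohorts 1 and 2. It stood at -0.26 ± 0.14 and -0.11 ± 0.14 against the control there (adjusted p = 0.512 and 0.754, limma). It read 5.89 and 6.02 in the control, 5.58 to 5.96 over cohorts 0, 1 and 2, and 6.34 and 6.49 in cohort 3+. It rose by 0.46 ± 0.14 in cohort 3+ against the control (1.38-fold, adjusted p = 0.0439), a call lost without any 1 of the 4 arrays (adjusted p 0.0822 to 0.227). The other 4 probe sets correlated with each other at r 0.813 to 0.974 over the 10 arrays and with this one at r 0.268 to 0.602. Against cohort 2 the fifth read 0.58 ± 0.14 higher in cohort 3+ (adjusted p = 0.0646, and 0.0267 with the block). The other 4 read 0.44 to 0.92 higher in that comparison. The transcripts that each probe set reads were not analysed here.

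**Figure D2:**
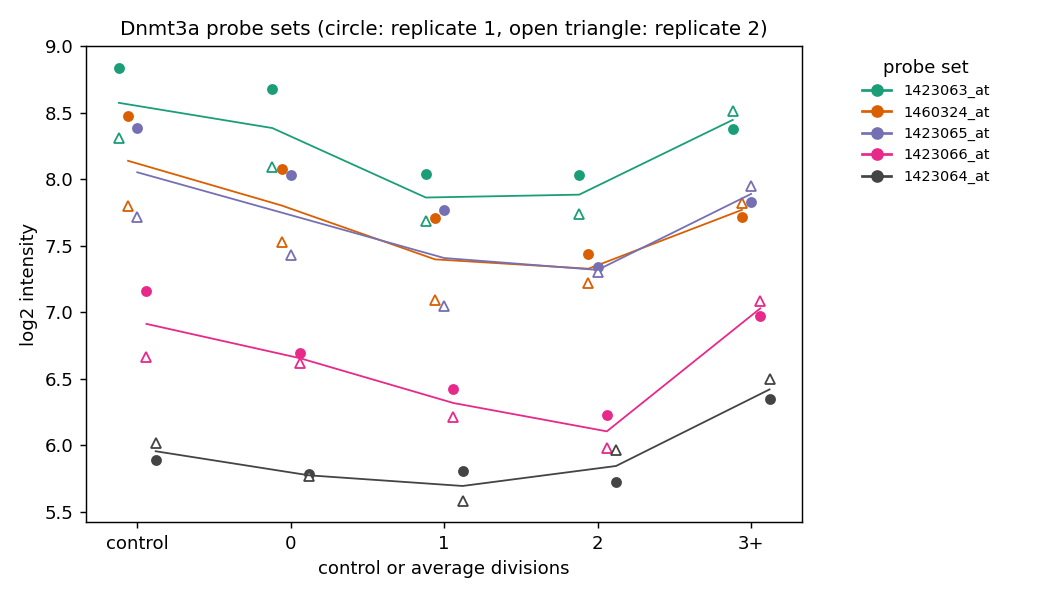
Log2 intensity (vertical axis) of the 5 Dnmt3a probe sets in the control and the 4 cohorts (horizontal axis), with a point for each array and a line through the group means. The other lines dip in cohorts 1 and 2, and 1423064_at dips less. It stays between 5.58 and 6.02 until cohort 3+, where it reads 6.34 and 6.49.

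Dnmt3b, the other de novo enzyme and the main one of early embryonic cells, was highest in cohort 3+. At 1449052_a_at the control read 6.35 on both arrays, cohorts 0, 1 and 2 read 6.07 to 6.40, and cohort 3+ read 7.05 and 6.94. At 1418351_a_at the control read 5.03 and 4.92, cohort 0 read 5.43 and 5.49, cohort 1 read 5.39 and 4.996, cohort 2 read 5.16 and 5.06, and cohort 3+ read 5.87 and 5.88. The cohort 3+ arrays lay above all the others at both. The rise from the control was 0.64 ± 0.15 (1.56-fold, adjusted p = 0.0204) and 0.90 ± 0.14 (1.86-fold, adjusted p = 0.0033), and from cohort 2 it was 0.73 ± 0.15 and 0.77 ± 0.14 (adjusted p = 0.0489 and 0.0388). Against the control, the second probe set kept its call without each array and the first lost it without any 1 of them (adjusted p 0.0735 to 0.102). Against cohort 2, both lost it without any 1 array (adjusted p up to 0.284 and 0.281). The second probe set stood 0.48 ± 0.14 above the control in cohort 0 (adjusted p = 0.299), where the first stood at -0.10 ± 0.15.

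The 3 probe sets of Tet2 and Tet3 gave no call in any of the 6 comparisons. These genes encode dioxygenases that turn methylcytosine into hydroxymethylcytosine. For Tet2 at 1438781_at, replicates of a group differed by up to 1.25 while the group means spanned 0.35. It read 7.73 and 6.93 in the control, 7.64 and 6.60 in cohort 0, 7.75 and 6.50 in cohort 1, 7.54 and 7.39 in cohort 2, and 7.29 and 6.93 in cohort 3+. Replicate 2 was lower than replicate 1 in all 5 groups at both Tet2 probe sets, by 0.15 to 1.25 at this one and 0.03 to 0.62 at 1455300_at. The difference of cohort 3+ from the control was -0.22 ± 0.47 at the first (adjusted p = 0.811) and 0.41 ± 0.25 at the second (adjusted p = 0.319, and 0.0874 with the block), so the probe sets differ in sign. The Tet3 probe set, 1439324_at, read 5.57 and 5.76 in the control, 5.51 and 5.72 in cohort 0, 5.74 and 5.70 in cohort 1, 5.22 and 5.72 in cohort 2, and 5.995 and 5.989 in cohort 3+. Cohort 3+ lay above all other arrays, by 0.33 ± 0.17 over the control and 0.52 ± 0.17 over cohort 2, and neither difference passed (adjusted p = 0.240 and 0.150).

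Mbd3 encodes a core subunit of the NuRD remodelling and deacetylase complex and, unlike its relatives, binds methylated DNA weakly. Its probe set, 1417728_at, read 8.49 on both control arrays, 8.82 and 8.79 in cohort 0, 8.27 and 8.80 in cohort 1, 8.57 and 8.56 in cohort 2, and 8.65 and 8.91 in cohort 3+. The groups stayed within 0.32 of each other in their means. The largest difference from the control was 0.32 ± 0.18 in cohort 0 (adjusted p = 0.650), and that of cohort 3+ was 0.29 ± 0.18 (adjusted p = 0.304).

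Counted by gene at the brightest probe set, 5 of 9 rose in cohort 3+ against the control (Dnmt1, Uhrf1, Hells, Dnmt3b and Uhrf2) and none fell, where 26.1% of the 18193 genes were called and 15.1% rose. The median change of the 9 was 0.64, against 0.024 over all genes. Without 1 array, 3 or 4 of the 9 were called. By probe set, 11 of 21 rose, where 20.7% of all probe sets were called and 11.3% rose. The brightest probe sets of the 9 lay above the median level, at percentiles 56.9 to 85.1 of all probe sets. Tested alone, the 22518 probe sets above the median gave 9002 calls in cohort 3+, with 5 of the 9 members called. For cohort 2 against the control that test gave 2151 calls, with 3 of the 9 members called. In cohort 2, 3 of 9 rose (Uhrf1, Hells and Uhrf2), where 5.4% of genes were called and 3.63% rose, and without 1 array 0 to 2 were called. With the block Uhrf1, Hells and Uhrf2 rose again and Dnmt3a fell, where 13.7% of genes were called, 8.02% upward and 5.68% downward.

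No member was called in cohort 0 or cohort 1 (limma), where 0.154% and 0.929% of genes were. At an unadjusted p under 0.05 there were 7 and 9 of the 21 probe sets, where 9.68% and 12.1% of all probe sets passed. With the block, Hells passed in cohort 0 and both Uhrf1 and Hells in cohort 1, where 2.67% and 5.61% of genes were called. Cohort 2 against cohort 0 gave no member by either fit, where 0.055% of genes were called without the block and 1.09% with it. At an unadjusted p under 0.05 there were 3 of the 21 probe sets, against 7.14% of all. In cohort 3+ against cohort 2, Hells and Dnmt3b rose, where 4.19% of genes were called and 2.4% rose. All 21 member probe sets had non-overlapping arrays in that last comparison, which crosses the sets, against 50.9% of all probe sets. Both directions are counted, and Uhrf2 1447217_at and Tet2 1438781_at were lower in cohort 3+. The same count was 12, 12, 15 and 15 of 21 for cohorts 0, 1, 2 and 3+ against the control. The shares of all probe sets were 37.7%, 38.4%, 46.2% and 59.1%. For cohort 2 against cohort 0 it was 11 of 21, against 36.3%. The 4 comparisons with the control share its 2 arrays, so their values are set side by side and not counted as separate evidence.

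**Figure D3:**
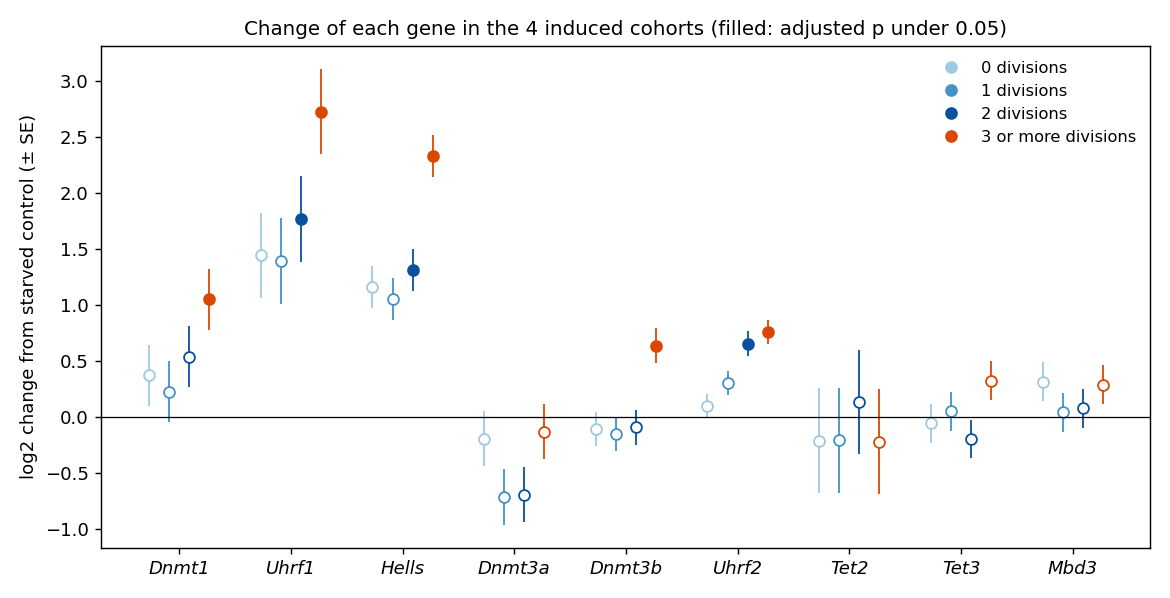
Log2 change from the control (vertical axis, bars are SE) of each of the 9 genes (horizontal axis) at its brightest probe set, with a colour for each of the 4 cohorts; filled points passed adjusted p under 0.05 in the fit without the replicate block. For cohort 3+ 5 points are filled, for cohort 2 there are 3, and for cohorts 0 and 1 there are 0.

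Among genes that work beside the maintenance enzymes, 6 of 10 measured rose in cohort 3+ against the control and none fell, with a median change of 0.73. They were led by Cdca7l (3.06 ± 0.12, adjusted p = 8.15e-05) and Cdca7 (2.89 ± 0.24, adjusted p = 0.00030). Cdca7 encodes the zinc-finger partner of HELLS, and Cdca7l its relative. Cdca7l read 5.82 and 5.78 in the control, 7.84 and 7.57 in cohort 0, 7.56 and 7.62 in cohort 1, 8.03 and 7.92 in cohort 2, and 8.84 and 8.88 in cohort 3+. Both genes were already called in cohort 0 (1.91 ± 0.12 and 1.87 ± 0.24, adjusted p = 0.0031 and 0.0466), in cohort 1 (adjusted p = 0.0036 and 0.0264) and in cohort 2 (adjusted p = 0.00089 and 0.0058), and no other gene of this list was in the fit without the block. With the block Pclaf passed in cohort 0 (adjusted p = 0.0343), Pcna, Lig1 and Pclaf in cohort 2 (adjusted p = 0.0487, 0.0271 and 0.0109) and Pcna in cohort 3+ (adjusted p = 0.0082), which made 3, 5 and 7 of 10. Dppa3, which keeps UHRF1 off chromatin in germ cells, read -0.07 ± 0.13 in cohort 3+ against the control (adjusted p = 0.773).

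Replication licensing and S phase genes are given beside Dnmt1, Uhrf1 and Hells, which cycling cells use in S phase. Of 18, 14 rose in cohort 3+ against the control, with a median change of 1.55, led by the licensing factor Cdt1 (2.55 ± 0.25, adjusted p = 0.00052) and the helicase subunit Mcm5 (2.32 ± 0.23, adjusted p = 0.00053). E2f1 fell by 0.79 on the log2 scale (SE 0.11, adjusted p = 0.0017), from 7.77 and 7.67 in the control to 6.93 and 6.94. In cohort 2 10 of the 18 rose (median 1.05). Cohort 1 had 2, Mcm7 (1.08 ± 0.14) and Rrm2 (1.07 ± 0.15), and cohort 0 none, with median changes of 0.78 and 0.84 and 16 of 18 above 0 in each. With the block 10 rose in cohort 0, 9 rose and E2f1 fell in cohort 1, 12 rose in cohort 2, and 16 rose and E2f1 fell in cohort 3+. From cohort 2 to cohort 3+ Cdc45 and Rrm2 rose, and with the block 8 rose and E2f1 fell.

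Partners of the de novo enzymes and other methyltransferases are a list of 10. Of these, 3 rose in cohort 3+ (Setdb1 by 0.67 ± 0.13, Trim28 by 0.63 ± 0.15 and Ehmt2 by 0.43 ± 0.12, adjusted p = 0.0072, 0.0212 and 0.0426), and the median change was 0.17. Setdb1 and Ehmt2 encode histone H3 lysine 9 methyltransferases and Trim28 the corepressor that brings SETDB1 to DNA. Dnmt3l, the cofactor of DNMT3A and DNMT3B in germ cells, read -0.44 ± 0.20 (adjusted p = 0.176). With the block Nsd1, a histone H3 lysine 36 methyltransferase, passed as well (0.46, adjusted p = 0.0265). None of the 10 was called in the other 5 comparisons by either fit.

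In a list of genes around erasure and base excision repair, not all of which remove methylation, 7 of 19 measured genes rose in cohort 3+. In the same list 4 fell, and the median change was 0.37. The rise was led by the uracil glycosylase Ung (2.39 ± 0.22, adjusted p = 0.00042) and by Parp1, the poly(ADP-ribose) polymerase that acts at strand breaks (2.04 ± 0.15, adjusted p = 0.00023). The fall was led by the stress gene Gadd45b (-1.65 ± 0.24, adjusted p = 0.0023) and Tet1 (-1.31 ± 0.32, adjusted p = 0.0222), and Gadd45a and Cxxc5 fell too (-0.98 ± 0.27 and -0.95 ± 0.24, adjusted p = 0.0372 and 0.0259). Tet1 read 7.11 and 6.44 in the control, 6.75 and 6.17 in cohort 0, 6.37 and 5.54 in cohort 1, 5.54 and 5.47 in cohort 2, and 5.35 and 5.58 in cohort 3+. Of its 4 probe sets 2 passed, and the others read -1.11 ± 0.40 (adjusted p = 0.0886, and 0.0068 with the block) and -0.05 ± 0.17 (adjusted p = 0.892). In cohort 2 4 rose (Ung, Apex1, Parp1 and Mbd4) and Gadd45b fell, and from cohort 2 to cohort 3+ Ung and Parp1 rose. With the block 3 rose in cohort 0 (Ung, Apex1 and Parp1), 4 rose and Gadd45b fell in cohort 1, 7 rose and 2 fell in cohort 2 (Gadd45b and Tet1), and 9 rose and 4 fell in cohort 3+. Between cohorts the block gave a rise of Apobec1 in cohort 2 against cohort 0 (0.66, adjusted p = 0.0459), and 4 rises with 2 falls (Gadd45a and Cxxc5) in cohort 3+ against cohort 2.

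Readers of methylated DNA gave 1 call among 6 measured: Zbtb4 fell by 1.09 on the log2 scale (SE 0.17, adjusted p = 0.0027) in cohort 3+ against the control and by 0.93 (SE 0.17, adjusted p = 0.0360) against cohort 2. The list's median change against the control was -0.08. For the NuRD complex, in which MBD3 sits, 2 of 11 rose in cohort 3+ (Gatad2a by 1.09 ± 0.20 and Mta1 by 0.72 ± 0.13, adjusted p = 0.0059 and 0.0053). With the block Zbtb33 also rose among the readers (0.47, adjusted p = 0.0371). Among the NuRD genes the block added Chd3, Chd4 and Mta2 in cohort 3+, Chd4 and Gatad2a in cohort 2, and Gatad2a from cohort 2 to cohort 3+. Thus 5 of the 11 rose in cohort 3+ with the block, and all 11 read above 0 in either case, with a median change of 0.25.

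Genes that supply methyl groups or oxoglutarate, the cosubstrate of TET enzymes, rose in 6 of 12 measured cases in cohort 3+ and fell in none, with a median change of 0.70. They were led by methionine synthase Mtr (2.24 ± 0.22, adjusted p = 0.00051) and the serine hydroxymethyltransferase Shmt2 (1.81 ± 0.21, adjusted p = 0.00094). From cohort 2 to cohort 3+ 3 rose, Mtr by 1.45 ± 0.22, Shmt2 by 1.26 ± 0.21 and Mthfd1 by 0.89 ± 0.15 (adjusted p = 0.0282, 0.0325 and 0.0317), and in cohort 2 against the control Ahcy and Mthfd1 rose (0.92 ± 0.15 and 0.70 ± 0.15). With the block 2 of the 12 rose in cohort 0 (Mthfd1 and Shmt2), 3 in cohort 1, 4 in cohort 2, 6 in cohort 3+ and 6 from cohort 2 to cohort 3+.

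The counts of these lists stand beside the shares of all genes called in the same comparison and fit. Without the block, 0.104%, 0.698%, 3.63% and 15.1% of genes rose in cohorts 0, 1, 2 and 3+ against the control, and 2.4% rose from cohort 2 to cohort 3+. In that fit 1.77%, 10.9% and 1.8% fell in cohort 2, in cohort 3+ and from cohort 2 to cohort 3+. With the block, 1.92%, 3.55%, 8.02% and 19.4% rose in cohorts 0, 1, 2 and 3+, 0.731% from cohort 0 to cohort 2 and 8.71% from cohort 2 to cohort 3+. In that fit 2.06%, 5.68%, 16.3% and 7.69% fell in cohorts 1, 2 and 3+ and from cohort 2 to cohort 3+. The lists were not refitted with arrays left out. The values of Mcm5, Shmt2 and Trim28 above come from probe sets with the _x_at suffix. As for Dnmt1, it marks probes that may bind other transcripts.

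**Figure D4:**
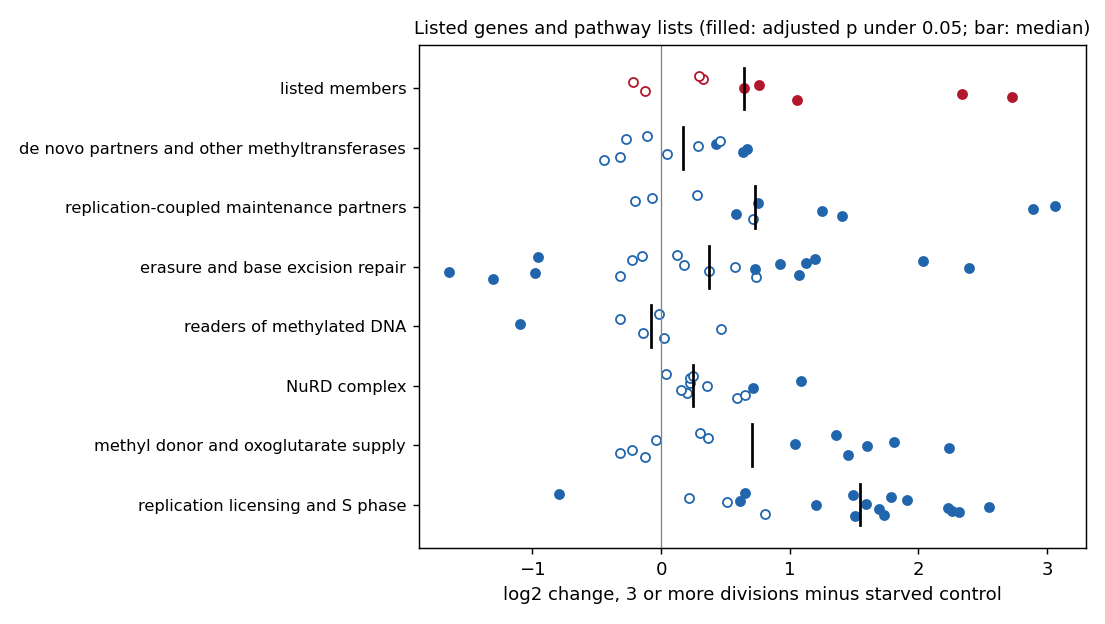
Log2 change of cohort 3+ against the control (horizontal axis) for each of the 9 measured members (top row) and each measured gene of the 7 pathway lists (rows below); filled points passed adjusted p under 0.05 and a black bar marks each row's median. The medians of the pathway lists run from -0.08 for readers of methylated DNA to 1.55 for replication licensing and S phase.

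Over the 10 arrays, the gene most like a member (Pearson r among 9096 genes of above-median level) was Trip13 for Hells (r 0.994), Mcm2 for Uhrf1 (r 0.990), Rfc2 for Dnmt1 (r 0.986), Edem2 for Uhrf2 (r 0.984), Ppp1r15b for Dnmt3b (r 0.976), Brd8 for Tet2 (r 0.962), Psmd11 for Mbd3 (r 0.956), Lamc1 for Tet3 (r 0.944) and Rab29 for Dnmt3a (r 0.913). Next came Ccna2 and Emg1 for Hells (r 0.993 and 0.991), Phax and Ttk for Uhrf1 (r 0.988 and 0.985), and Hnrnpa2b1 and Pradc1 for Dnmt1 (r 0.982 and 0.980). For Uhrf2 they were Rbm45 and Pigq (r 0.982 and 0.977), for Dnmt3b Setd7 and Tmem183a (r 0.954 and 0.941), and for Dnmt3a Hif1an and Smc6 (r 0.912 and 0.908). For Tet2 they were Acvr1b and Mtx3 (r 0.949 for both), for Tet3 Tcea1 and Retreg3 (r 0.936 and 0.934), and for Mbd3 Nap1l4 and Dcbld1 (r 0.950 and 0.932). The arrays share groups, sets and replicate numbers, so these values describe likeness over this design and carry no p.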

How the data were processed

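The authors deposited 1 table of linear intensity for 45101 probe sets on 10 arrays; RMA is given for 4 of them, those of the earlier set, per the submitters' processing notes. Tools for the other 6, and whether all arrays were normalized together, are not given in the sources used here. Array medians were 31.4 to 33.95. No detection calls were used, and the number of arrays limits the precision.

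From these values, log2 intensity was taken after a floor of 1, and the 10 arrays were quantile normalized. Leaving out 64 control probe sets, 45037 were fitted with limma 3.58.1 in R 4.3.3 (lmFit and eBayes, 5 group means, 5 residual degrees of freedom), with Benjamini-Hochberg adjustment over all of them; a change was called at adjusted p under 0.05, two-sided. The script was tested on simulated data. Of all probe sets but the controls, 34945 named 1 gene, 932 several and 9160 none; genes were named only from the first kind. A gene stands for its probe set of highest mean.

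The members and lists were chosen with earlier results of these data known. Named genes were every member, per list the 2 largest rises and falls among called genes of cohort 3+ against the control, and the 3 genes with the highest r to each member; other genes were added after their values were seen. List genes without a probe set of their own are not reported here. Same-numbered replicates deviated together in all 10 pairs of groups (r 0.435 to 0.830 over 22518 probe sets). This was read as a pairing by number that rests on the data and not on the labels. The pairing did not hold for every member. At the brightest probe sets of Dnmt1, Uhrf1 and Dnmt3a, replicate 2 was lower in the control and cohorts 0 to 2 but higher in cohort 3+. For Uhrf1 the differences were -1.30, -0.48, -0.27, -0.34 and 0.38, while for Tet2 replicate 2 was lower in all 5 groups. The fit with the replicate number as a block (4 residual degrees of freedom) is given where it changes a member's call or a list's count. Alternatives were no quantile normalization, median centring, a floor of 16, probe sets above the median, 1 probe set per gene, the block, only the 4 arrays compared, and each array left out.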

Additional observations from a re-analysis of the deposited data

How the results depend on the processing

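With 2 arrays per group, counts moved with the processing. Of 239 pairs of a member change with an alternative in which either passed, 0 had the other sign. Where neither passed it was 53 of 1063. The alternatives refit the same arrays and the 239 pairs were picked by passing, so this count cannot show that directions are stable. Called probe sets were 55, 303, 1871 and 9304 for cohorts 0, 1, 2 and 3+ against the control, 22 for cohort 2 against cohort 0 and 1317 for cohort 3+ against cohort 2. In that order, a floor of 16 gave 36, 94 and 985 for the first 3, 4 for the fifth and 356 for the last. Testing 1 probe set per gene, with fewer features, gave 1114 in cohort 2, 5020 in cohort 3+ and 10 in cohort 2 against cohort 0. The fit with only the 4 arrays compared, which has fewer samples, gave 0, 0 and 136 for the first 3, 0 for cohort 2 against cohort 0 and 773 for the last. With the replicate block there were 819, 1833, 4834, 389 (cohort 2 against cohort 0) and 5561 (cohort 3+ against cohort 2). Without 1 array the ranges were 1 to 32, 9 to 105, 138 to 913, 4410 to 7213, 0 to 28 and 2 to 277.

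Called member genes were 0, 0, 3, 5, 0 and 2 of 9 in the same order. In cohort 3+ against cohort 2 they were 1 without quantile normalization, 1 with only the 4 arrays compared and 0 with a floor of 16. In cohort 1 they were 1 with probe sets above the median, 1 with 1 probe set per gene and 2 with the replicate block; in cohort 0 the block gave 1, and in cohort 2 only the 4 arrays compared gave 0. Without 1 array the ranges were 0 to 0, 0 to 1, 0 to 2, 3 to 4, 0 to 0 and 0 to 0. Where no construction is named, the cause was not tested. In cohort 3+ against the control, both Uhrf1 probe sets, 2 of Hells, 2 of Dnmt1, Dnmt3b 1418351_a_at and Uhrf2 1454920_at kept their calls under every alternative run. Of the others, Dnmt1 1422946_a_at did not pass at a floor of 16 (0.0835, all such values being adjusted p), nor did Dnmt3a 1423064_at without quantile normalization (0.0525) and with only the 4 arrays (0.0843). In cohort 2, Uhrf1 1415810_at was lost with a floor of 16 (0.132) and only the 4 arrays (0.155), Uhrf1 1415811_at with a floor of 16 (0.0597), Hells with only the 4 arrays (0.0621) and Uhrf2 with only the 4 arrays (0.111). Dnmt3a 1423066_at was lost in cohort 2 without quantile normalization (0.0583), with median centring (0.0671), with a floor of 16 (0.103) and with only the 4 arrays (0.179). The replicate block changed no member call other than those given with their values above. Signal over background was not analysed here.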
